A study of Mus musculus with 2 samples.

Results

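Oxidative phosphorylation genes were followed over coronal mouse brain sections. The members are the 13 protein-coding genes of the mitochondrial genome and 96 nuclear genes whose symbols mark them as subunits or assembly factors of respiratory complexes I to V, or as cytochrome c, which makes 109 of the 32285 genes counted. They were taken by their symbols. Of the 109, 108 had counts in each section, and Cox8c, the testis isoform of a complex IV subunit, was at 0 in both (0 counts, which allows up to 0.116 CPM in the Trained section and 0.0606 CPM in the Untrained one, with CPM defined below).

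The data are 2 sections on Visium arrays, glass slides on which 55 µm spots capture polyadenylated RNA and tag each molecule with a unique molecular identifier (UMI). Both came from male ArcCreERT2::eYFPflx mice on a C57BL/6 background, 3 to 4 months old, which carry an inducible Cre under control of the activity-dependent gene Arc and a Cre-dependent fluorescent reporter. The Trained mouse learned to avoid a shocked sector of a rotating arena in 4 trials of 30 min, and the Untrained mouse spent the same time in the arena with the shock off. Each then had a 10 min retention test with no shock 24 h after training, the brain was collected 60 min later, and a 10 µm section holding the dorsal hippocampus was placed on the array. The deposited labels of the 2 sections might be the reverse of those in the study's text, and directions below follow the deposited labels. The doubt comes from the share of spots that hold Egr1, an activity-induced gene. In the study's text the order of that share between the mice is the other way round. Over the CA1, CA3 and dentate gyrus regions defined below, Egr1 had a UMI in 237 of 437 spots of the Trained section (54.2%, Clopper-Pearson interval 49.4% to 59.0%) and in 361 of 486 spots of the Untrained section (74.3%, 70.2% to 78.1%). The spots had a median of 7009 and 18238 UMIs. Thinned to 1000 UMIs each, the shares were 11.2% (8.41% to 14.6%) and 11.9% (9.19% to 15.2%). As a level, Egr1 was higher in the Trained section, with 191.9 CPM from 692 UMIs against 169.3 CPM from 1528 UMIs. The study counted spots over the whole hippocampus and without thinning, so none of these values repeats its measure. Their orders differ, and they did not settle the doubt. There was 1 section per group, so no value below has a replicate check, intervals cover counting error only, and a difference between the sections cannot be told apart from a difference between mice, section planes or libraries.

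Oxidative phosphorylation passes electrons from NADH and succinate through complexes I to IV of the inner mitochondrial membrane and uses the resulting proton gradient to make ATP in complex V. Most subunits are encoded in the nucleus and imported, while a small core of complexes I, III, IV and V is transcribed inside the organelle from the circular mitochondrial DNA. Neurons depend on this pathway for ion pumping and synaptic transmission, and mitochondria, with their own transcripts, are carried into dendrites and axons.

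The Trained section held 4152 spots and 29515831 UMIs (median 5950.5 per spot), the Untrained section 3738 spots and 59029131 UMIs (median 13766.5). The 3448 spot barcodes found in both belong to the common set of array positions. Spots were clustered jointly without any member gene, and the 20 regions with at least 20 spots in each section were compared. They were named from fixed markers, which left 4 of the 21 clusters undecided, and these are called by their leading genes. Leading genes also name the clusters that shared a marker set, a Pmch and an Oxt region (both hypothalamus by the markers), a Spp1 and Pvalb and a Six3 and Pvalb region (both Pvalb and neurofilament rich subcortex), and a small region led by Lbp and Tmem72 beside the cluster called choroid plexus (both choroid plexus by the markers). The sections did not hold the same tissue in equal parts, the striatum for example having 221 spots in the Trained and 28 in the Untrained section. A region led by Cartpt and Trhr had 2 spots in the Trained section and 184 in the Untrained one and was not compared. Levels are given as counts per 1000000 nuclear-encoded UMIs (CPM), so that the mitochondrial transcripts do not enter their own denominator. Because UMIs are tags of transcript ends, 1 molecule gives 1 count whatever the transcript length. Several nuclear members and the mitochondrial genes have near-identical copies in the nuclear genome, so levels of single genes are uncertain where reads could not be placed. In spots of bulk tissue, fewer cells of a type and less RNA per cell cannot be told apart.

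Mitochondrially encoded transcripts made up 12.3% of all UMIs in the Trained and 16.2% in the Untrained section. The 96 nuclear members made up 6.92% and 6.51% of nuclear-encoded UMIs. They include Ndufb1-ps, which the GENCODE annotation types as a non-coding RNA and which is counted below with the complex I subunits. Of the mitochondrial transcripts, the 3 complex IV subunits were the most abundant group, with 73340 CPM in the Trained and 94220 CPM in the Untrained section. The 7 complex I subunits had 30230 and 49490 CPM, the 2 complex V subunits 22380 and 29350 CPM, and mt-Cytb, the cytochrome b of complex III, 14730 and 19560 CPM. Among the nuclear members, the 37 complex I genes summed to 21060 and 19750 CPM, the 19 of complex IV to 21650 and 18770 CPM, the 17 of complex V to 17790 and 18000 CPM, the 9 of complex III to 6221 and 6415 CPM, and the 4 of complex II, which has no mitochondrially encoded subunit, to 832.9 and 840.8 CPM. The most abundant nuclear member of each complex was Ndufa13 for complex I (1341 and 1151 CPM), Sdha for complex II over both sections (300.5 and 331.9 CPM, with Sdhb higher in the Trained section at 307.3 CPM), Uqcrq for complex III (1295 and 1212 CPM), Cox4i1 for complex IV over both sections (2672 and 2698 CPM, with Cox6c higher in the Trained section at 2946 CPM) and Atp5md for complex V (2614 and 2283 CPM), each value given for Trained and then Untrained.

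The nuclear members sit on many chromosomes, and their promoters were read to show what they share in sequence. Promoter windows of 300 bases, from 250 before to 50 after the RefSeq start (GRCm38.p6), were found for 78 of the 96 by symbol or synonym. The NRF1 core TGCGCA, searched on both strands as were the others, was present in 24.1% of the 83 windows of nuclear members, in 13.7% of the 11897 windows of nuclear genes with at least 400 UMIs, and in 7.76% of all 32851 windows. The ETS motif CCGGAAG, bound by GABP among others, was in 22.9%, 16.7% and 8.86% of the same sets. The YY1 core AAGATGG was in 14.5%, 7.03% and 6.34%. The median number of CG dinucleotides per window was 20 for the members, 21 for the genes with at least 400 UMIs and 7 for all windows. The 250 bases before the start are shown for Cox6a1 and Cox8a, broadly expressed complex IV isoforms, and for Cox8b, the restricted partner of Cox8a whose regional levels follow, with matches to the NRF1 and ETS letters in capitals. All 3 lie on the minus strand, Cox6a1 at chr5:115348959-115349208, Cox8a at chr19:7217617-7217866 and Cox8b at chr7:140900447-140900696.
Cox6a1: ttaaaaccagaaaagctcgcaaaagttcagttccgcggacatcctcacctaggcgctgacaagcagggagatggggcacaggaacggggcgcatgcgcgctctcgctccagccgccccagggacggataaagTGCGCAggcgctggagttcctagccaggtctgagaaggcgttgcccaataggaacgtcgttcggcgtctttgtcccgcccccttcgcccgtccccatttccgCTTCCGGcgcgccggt
Cox8a: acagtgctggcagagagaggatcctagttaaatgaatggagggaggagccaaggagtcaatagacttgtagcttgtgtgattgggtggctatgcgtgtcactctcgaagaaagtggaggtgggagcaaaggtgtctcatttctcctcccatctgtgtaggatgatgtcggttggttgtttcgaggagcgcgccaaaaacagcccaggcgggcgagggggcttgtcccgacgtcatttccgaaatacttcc
Cox8b: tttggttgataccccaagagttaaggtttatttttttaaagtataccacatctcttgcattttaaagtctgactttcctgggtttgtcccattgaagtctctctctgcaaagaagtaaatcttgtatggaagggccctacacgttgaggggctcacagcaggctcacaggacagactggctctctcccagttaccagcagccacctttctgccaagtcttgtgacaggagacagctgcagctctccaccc
The Cox6a1 stretch held 1 NRF1 match and 1 ETS match with 26 CG dinucleotides. Neither Cox8 stretch held a match to the searched letters, although the full Cox8a window, which was counted above, has ETS matches that end past the start and so beyond the printed stretch. They had 11 (Cox8a) and 1 (Cox8b) CG dinucleotides. A match is a description of the letters and not a measured binding site.

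The share of mitochondrial transcripts formed a sharp anatomical pattern in both sections. It was highest in a hippocampal neuropil region, which carried the fixed markers of astrocyte-rich neuropil, whose leading genes were Ddn, a dendritic protein gene, Cabp7, Hopx, Camk2a and Gfap, and of whose spots 96.4% in the Trained and 78.6% in the Untrained section lay within 3 array steps of a CA1, CA3 or dentate gyrus spot. There 27.6% of UMIs in the Trained section (95% Clopper-Pearson interval 27.5% to 27.7%, 166 spots) and 28.5% in the Untrained section (28.3% to 28.6%, 84 spots) were mitochondrially encoded. The choroid plexus, the epithelium that makes cerebrospinal fluid, had the lowest share, 6.36% over 43 Trained spots and 11.02% over 132 Untrained spots. The Lbp and Tmem72 region, which met the same markers with fewer choroid plexus transcripts (78020 and 94320 CPM of 7 marker genes, against 205200 and 231600 CPM), went the other way, with 14.7% and 18.8% over 21 and 22 spots. CA3, the pyramidal field of the hippocampus, had 7.44% and 13.7%, and the habenula 7.70% and 13.9%. The relay thalamus, with 14.3% and 18.8%, and the striatum, with 16.95% and 17.4%, lay between these ends.

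**Figure D1:**
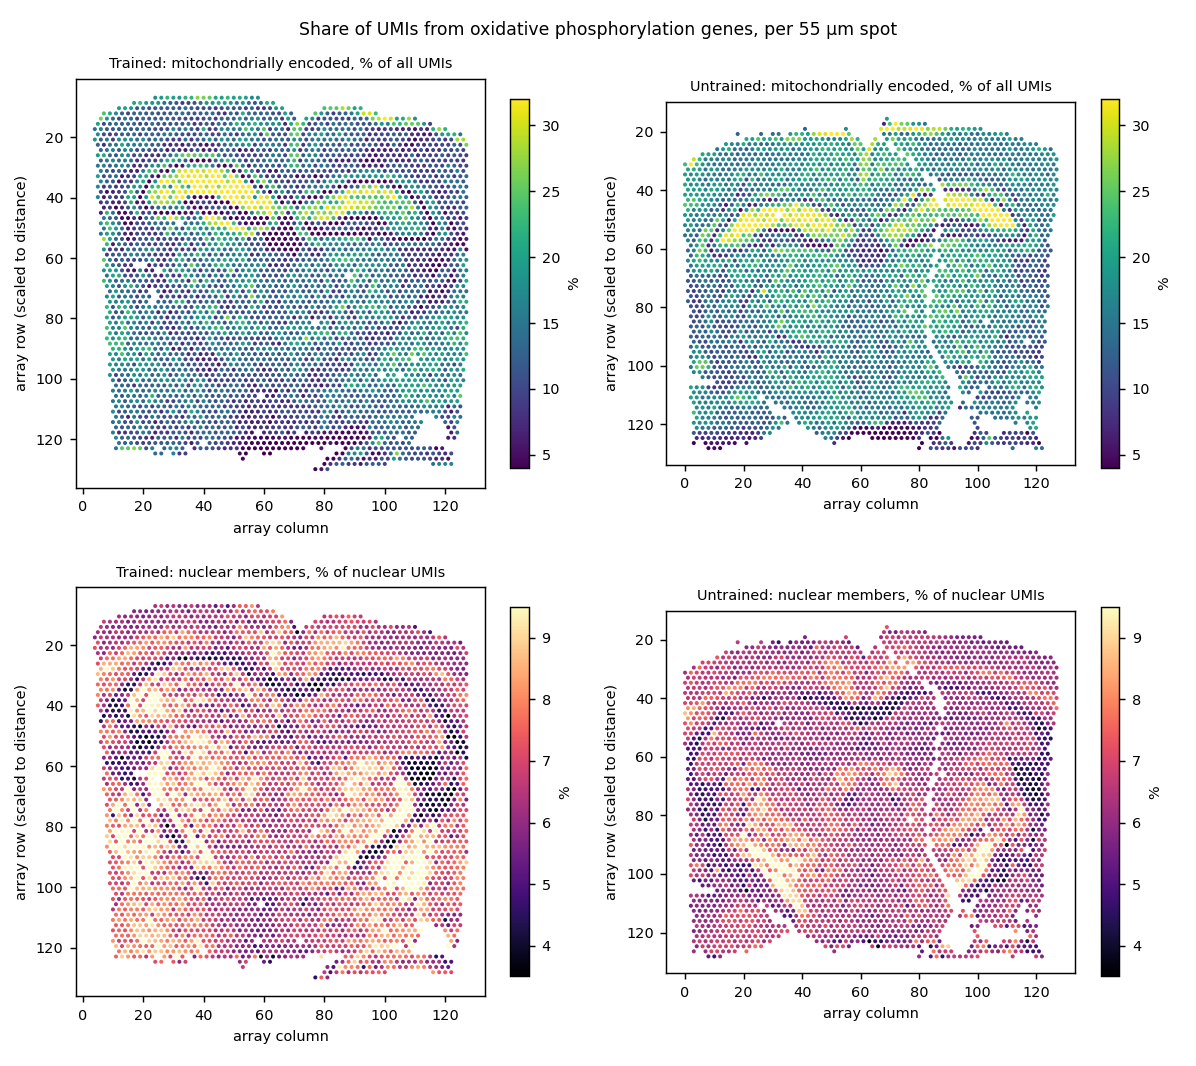
Each dot is a 55 µm spot with at least 500 UMIs, placed by array column and row. The upper maps colour the mitochondrially encoded share of all UMIs and the lower maps the share of nuclear members among nuclear-encoded UMIs. In both sections the upper maps are brightest in bands between the hippocampal cell layers, and the lower maps are darkest along white matter.

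All 13 mitochondrial genes were higher in the hippocampal neuropil than in the rest of the section by at least 0.5 on the log2 scale in both sections, the size used here to call a difference (1.414-fold). Of the 4898 nuclear genes tested, 4.9% were called higher in that region. The median log2 ratio of the 13 was 1.66 in the Trained and 1.18 in the Untrained section. mt-Nd1, a core subunit of complex I, had 22620 CPM there in the Trained section (log2 ratio 1.47, interval 1.431 to 1.503) and 26430 CPM in the Untrained section (0.98, 0.95 to 1.01). mt-Co1, the catalytic subunit of complex IV, had 83440 and 78780 CPM (log2 ratios 1.40 and 1.04). mt-Atp6, the proton channel subunit of complex V, had 62190 and 57020 CPM (1.52 and 1.02). These are levels relative to nuclear-encoded UMIs. Per spot, the neuropil had a median of 621.5 mitochondrial UMIs in the Trained and 1781.5 in the Untrained section, fewer than CA1 (795 and 2893), CA3 (865 and 3246) or the dentate gyrus (945.5 and 3728), with a median of 1520 and 4202.5 nuclear-encoded UMIs. The smallest of the 13 log2 ratios were those of mt-Co3 in the Trained section, 1.15, and of mt-Cytb in the Untrained section, 0.85.

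Nuclear members were not higher there. Of the 87 tested by region, those with at least 1000 UMIs in each section, 0 were higher and 1, Cox6a2, was lower in the hippocampal neuropil (from 4 and 6 UMIs), where 7.92% of nuclear genes were lower. Cox6a2 reached the minimum of 1000 UMIs in each section only with the 2 regions where it is high, described below, so its lower level against a rest that holds them is a description. Scaled to all UMIs, which by construction lowers every nuclear gene in a region rich in mitochondrial transcripts, 9 members and 20.6% of nuclear genes were lower in the neuropil, and with equal weight per spot 4 members and 7.39% of nuclear genes. Their median log2 ratio was -0.09 in the Trained and -0.12 in the Untrained section. Within complex I the mitochondrial subunits had a median of 1.73 and 1.22 and the nuclear subunits of -0.12 and -0.13. Within complex IV the medians were 1.40 and 1.04 for the mitochondrial and 0.10 and -0.10 for the nuclear subunits, and within complex V they were 1.83 and 1.22 against -0.08 and -0.12. Cycs, the gene of cytochrome c, was at -0.60 in the Trained and -0.17 in the Untrained section. Mitochondrial UMIs per UMI of a nuclear member were 5.38 and 6.43 in the hippocampal neuropil, against 2.03 and 2.96 over the sections.

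These spots were shallow, and marker lists of other cell types moved there. The neuropil had a median of 2107.5 UMIs per spot in the Trained and 6085 in the Untrained section. The 6 astrocyte-rich neuropil genes, the list that named the region, summed to 4036 and 3043 CPM there against 1704 and 1848 CPM over the sections, 6 microglial genes to 580.1 and 598.5 CPM against 333.6 and 325.8 CPM, 8 mural genes to 391.4 and 369.1 CPM against 198.8 and 235.5 CPM, 6 endothelial genes to 307.5 and 329.6 CPM against 237.9 and 240.0 CPM, 6 neuronal genes to 2684 and 2508 CPM against 4669 and 3709 CPM, and 4 haemoglobin genes to 6336 and 1060 CPM against 2243 and 1528 CPM. Their part in the mitochondrial share was not tested. Spots with fewer UMIs also had higher shares inside several regions. With the CA1 spots of each section divided at their median depth, mitochondrial transcripts made up 22.5% in the shallower and 8.82% in the deeper Trained spots, and 26.1% and 15.1% in the Untrained spots. For CA3 the values were 12.1% and 6.09%, and 19.6% and 11.7%. For the dentate gyrus they were 15.8% and 8.24%, and 22.4% and 11.8%. The habenula had 10.4% and 6.28%, and 18.7% and 11.46%, and deep neocortex 15.6% and 11.7%, and 19.6% and 17.5%. The relation was not general. In the neuropil itself the shallower and deeper spots had 29.4% and 26.6% in the Trained and 27.6% and 28.7% in the Untrained section, in the haemoglobin region 16.25% and 17.05%, and 12.1% and 19.6%, and in the Spp1 and Pvalb region 15.55% and 15.8%, and 15.8% and 16.7%. In white matter the shallower and deeper spots differed little, with 10.3% and 9.65%, and 13.97% and 14.6%. With coarser clusters, at resolution 1.0, 144 of the 166 Trained and 62 of the 84 Untrained neuropil spots fell into the CA1 pyramidal layer cluster of 361 and 280 spots, which held 190 of 190 and 198 of 201 CA1 spots. The share of that mixed cluster was 15.6% and 19.6%, and 6 of the 13 mitochondrial genes and 7.0% of nuclear genes were called higher in it.

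**Figure D2:**
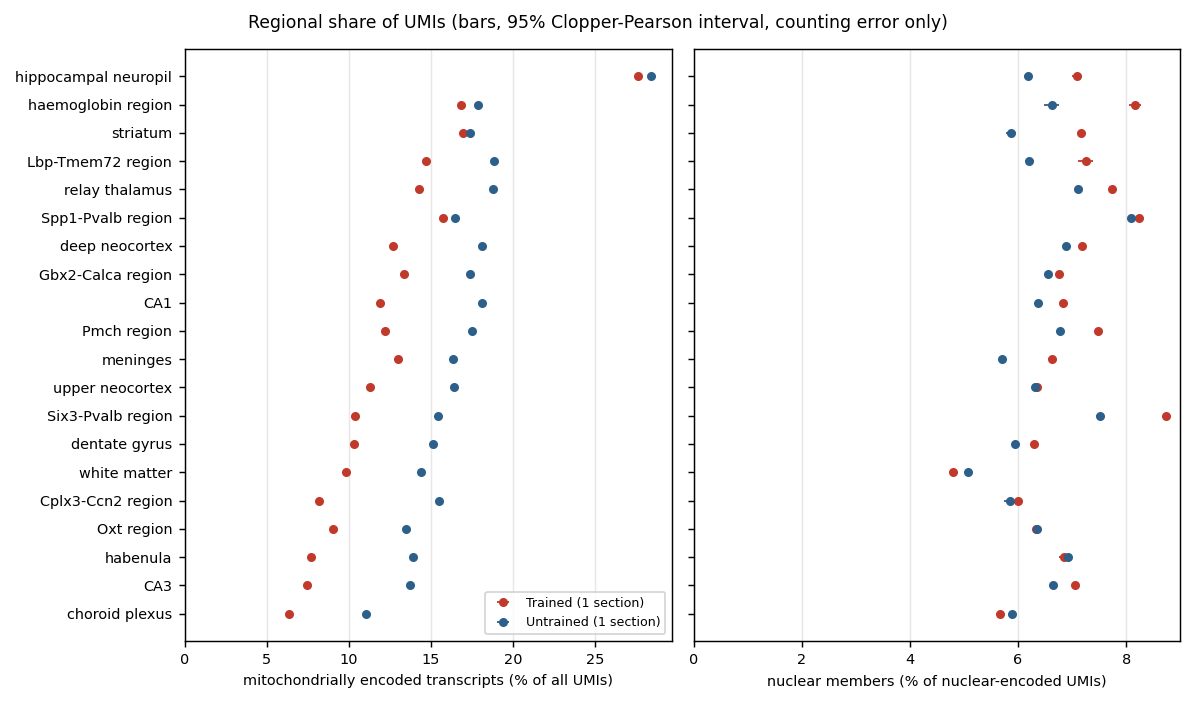
Points give the percentage of UMIs from mitochondrially encoded genes (left, of all UMIs) and from nuclear members (right, of nuclear-encoded UMIs) in each of 20 regions, with 95% Clopper-Pearson intervals that are mostly narrower than the points. The hippocampal neuropil stands alone on the left, at 27.6% and 28.5%, and is unremarkable on the right, at 7.09% and 6.19%.

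The choroid plexus was the only compared region in which more than 1 mitochondrial gene was called lower. There 10 of the 13 were lower and none higher, with a median log2 ratio of -1.07 in the Trained and -0.73 in the Untrained section, where 47.8% of nuclear genes were lower in the choroid plexus. The median of the 13 in the Lbp and Tmem72 region was 0.36 and 0.37. Single mitochondrial genes were called in 4 other regions. mt-Nd6 was higher in the striatum (log2 ratios 0.51 and 0.70 from 219 and 22 UMIs, background 2.27%) and lower in the habenula (-0.80 and -0.57 from 18 and 54 UMIs, background 11.2%), mt-Atp8 was lower in a hypothalamic region led by Oxt (-0.58 and -0.51, background 10.7%), and mt-Nd4l was higher in the Lbp and Tmem72 region (0.64 and 0.50, background 1.63%), each background being the share of nuclear genes called that way.

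As shares of UMIs, the nuclear members varied less between regions than the mitochondrial ones. Their share of nuclear-encoded UMIs ran from 4.797% in white matter to 8.74% in a region led by Six3 and Pvalb in the Trained section, a 1.82-fold range, and from 5.07% in white matter to 8.09% in a region led by Spp1 and Pvalb in the Untrained section, a 1.60-fold range. The mitochondrial share ranged 4.34-fold and 2.58-fold over the same 20 regions. In median UMIs per spot the order was reversed in the Trained section and kept in the Untrained one, with a 6.95-fold range for the nuclear members and a 6.04-fold range for the mitochondrial genes in the Trained section, and 16.1-fold and 17.97-fold ranges in the Untrained section. Of the 87 nuclear members tested, 37 were called in at least 1 region in either direction and 50 in none, where 77.7% of the 4898 nuclear genes tested were called in at least 1 region. The members were not matched to the other genes for abundance.

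White matter, marked by the myelin genes Mal and Mog, had the lowest levels. There 22 of the 87 nuclear members were lower and none higher, where 31.9% of all nuclear genes were lower and 9.94% higher, and the members' median log2 ratio was -0.55 in the Trained and -0.39 in the Untrained section (all genes, -0.35 and -0.29). The 6 neuronal genes summed to 1427 and 1482 CPM there against 4669 and 3709 CPM over the sections, the 6 microglial genes to 632.0 and 591.6 CPM against 333.6 and 325.8 CPM, 7 meningeal genes to 6429 and 6835 CPM against 1956 and 2615 CPM, the 6 endothelial genes to 321.7 and 325.8 CPM against 237.9 and 240.0 CPM, the 8 mural genes to 296.7 and 284.3 CPM against 198.8 and 235.5 CPM, and the 8 genes of the white matter list to 52880 and 44990 CPM against 8314 and 7768 CPM. Their part in the members' levels was not tested. By complex, 8 of 17 complex V subunits, 5 of 37 complex I subunits, 4 of 12 tested complex IV subunits, 1 of 9 of complex III and 1 of 4 of complex II were lower. So were 2 of the 6 tested complex I assembly factors, and Cycs. The complex IV calls here and in the choroid plexus include Cox6a2, to which the limit given for the neuropil applies. Atp5md, a small complex V subunit involved in joining the enzyme into dimers, had 1245 CPM in Trained white matter (log2 ratio -1.11) and 1264 CPM in Untrained white matter (-0.89). Cox7b, a complex IV subunit, had 700.4 and 677.4 CPM (-1.20 and -0.69). Cycs, the soluble electron carrier cytochrome c, had 391.6 and 290.8 CPM (-0.86 and -0.61). Of 16 tested genes of the tricarboxylic acid cycle and pyruvate dehydrogenase, which supply the NADH, 9 were also lower and none higher. With the coarser clusters 7 of the 87 members and 1370 of the 4898 nuclear genes were lower in the white matter cluster, which also took in 170 and 105 spots of the Spp1 and Pvalb region.

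In the choroid plexus 18 of the 87 nuclear members were lower and none higher, where 47.8% of nuclear genes were lower and 4.29% higher, with a median log2 ratio of -0.42 and -0.26. There the neuronal genes summed to 982.8 and 695.7 CPM, the meningeal genes to 3940 and 4456 CPM, the astrocyte-rich neuropil genes to 1084 and 956.4 CPM, the endothelial genes to 134.1 and 164.2 CPM, the mural genes to 301.2 and 285.2 CPM and the microglial genes to 263.8 and 267.7 CPM, beside the sums over the sections given above. Their part was not tested. Scaled to all UMIs, which by construction raises every nuclear gene in a region poor in mitochondrial transcripts, 3 members and 5.14% of nuclear genes were called higher there, and on the left side of the array alone 3 members and 4.08% of nuclear genes. By complex, 9 of 37 complex I subunits, 4 of the 6 tested complex I assembly factors, 1 of 4 complex II, 0 of 9 complex III, 3 of 12 tested complex IV and 0 of 17 complex V subunits were lower, and no difference between complexes was tested. Ndufb4, an accessory subunit of complex I, had 549.7 CPM in the Trained choroid plexus (log2 ratio -0.93) and 320.5 CPM in the Untrained one (-1.13), and Cox5a, which binds the regulatory face of complex IV, had 422.2 and 422.3 CPM (-0.87 and -1.09).

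Few of the 87 nuclear members tested were called higher in any region. There were 2 in each Pvalb-rich region and 2 in the relay thalamus, Cox6a2 included. As shares of the 87, these counts do not exceed the shares of all nuclear genes given below for the same regions. Ndufb8, an accessory subunit of complex I, was higher in both Pvalb-rich regions, with 997.5 and 1226 CPM in the Six3 and Pvalb region (log2 ratios 0.63 and 0.59) and 922.1 and 1411 CPM in the Spp1 and Pvalb region (0.52 and 0.83), where 2.86% and 3.86% of nuclear genes were higher. Ndufb10, another accessory subunit, was higher in the Six3 and Pvalb region (0.67 and 0.58), and the assembly factor Ndufaf2 in the Spp1 and Pvalb region (0.73 and 0.94). Ndufa10 was higher in the relay thalamus, with 287.8 and 300.2 CPM (0.58 and 0.57), where 6.92% of nuclear genes were higher. Cox6a2 was also above the rest in the 2 regions described next, but it reached the minimum of 1000 UMIs only through them, so its levels there are a description.

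**Figure D3:**
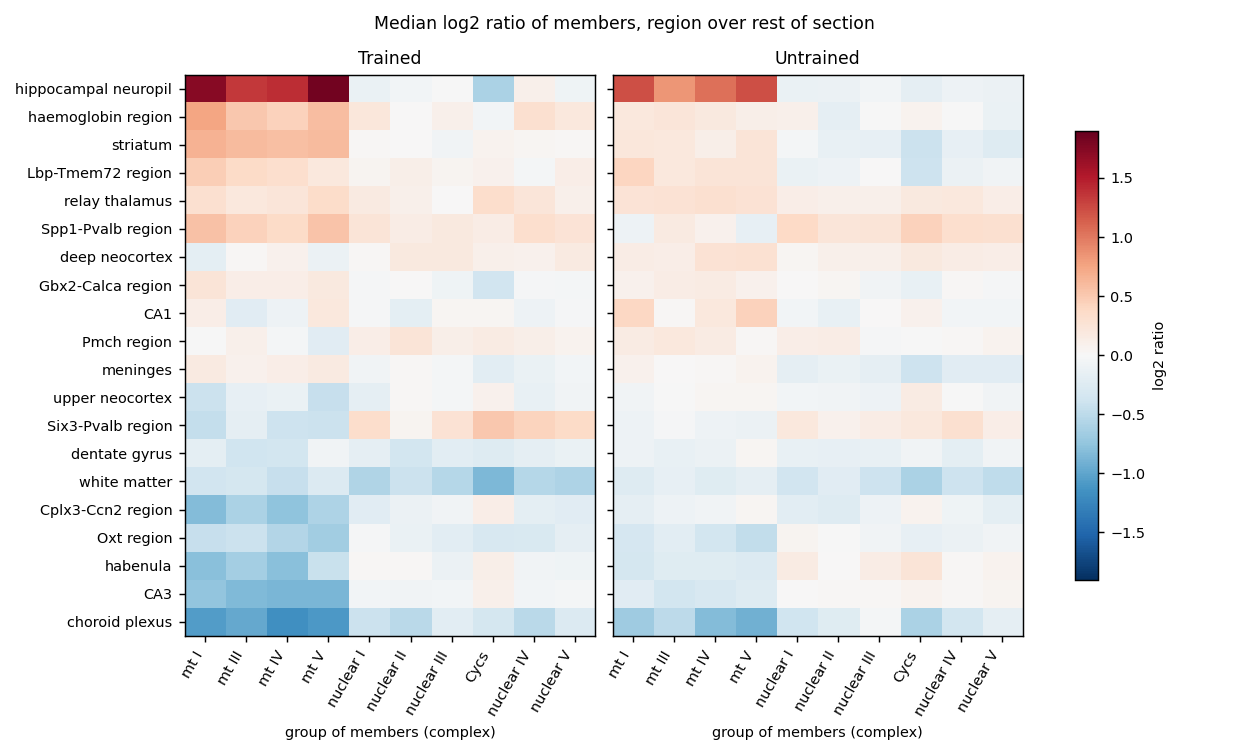
Colour gives the median log2 ratio of the members of each complex in a region over the rest of the same section, for mitochondrially encoded (mt) and nuclear members, in the Trained (left) and Untrained (right) section. In the top row the mt columns are red in both sections while the nuclear columns are near 0, apart from the single gene Cycs (-0.60 in the Trained and -0.17 in the Untrained section). White matter is blue across the nuclear columns.

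Several complex IV subunits exist as paired isoforms, of which 1 is broad and the other best known from heart, skeletal muscle, lung or testis. Cox6a2, the heart and muscle isoform of subunit 6a (chromosome 7, 128205435 to 128206387, minus strand, mm10), had its highest levels in the relay thalamus and in a region that the fixed markers left unnamed. Its level in the relay thalamus was 185.8 CPM (95% Poisson interval 166.5 to 206.7, 337 UMIs) in the Trained and 238.4 CPM (224.9 to 252.6, 1162 UMIs) in the Untrained section, with log2 ratios over the rest of 2.54 (2.35 to 2.72) and 2.98 (2.87 to 3.10). The unnamed region, led by Ctxn3, Gbx2, Cbln1 and Calca, where 3.45% of nuclear genes were higher, had 151.3 and 120.4 CPM (log2 ratios 2.14 and 1.40). These 2 regions covered 16.2% and 17.2% of the spots and held 55.9% and 62.5% of the Cox6a2 UMIs, which numbered 1107 and 2509 over the sections. Outside them the level was 22.0 and 22.8 CPM. CA1 had 6.52 and 12.6 CPM, CA3 7.20 and 12.65 CPM, and upper neocortex 15.7 and 19.4 CPM.

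The partner Cox6a1 had 3523 and 2040 CPM in the relay thalamus, so Cox6a2 made up 5.01% of the pair there in the Trained section (Clopper-Pearson interval 4.50% to 5.56%) and 10.5% in the Untrained section (9.90% to 11.1%). In CA1 it made up 0.267% (0.115% to 0.524%) and 0.759% (0.529% to 1.05%). An exon of Itgad lies opposite Cox6a2 on the other strand, and Itgad had 6 and 7 UMIs in the relay thalamus. Over the 40 region and section points the genes whose levels most resembled Cox6a2 were Rora, with a Pearson correlation of 0.897, Cit (0.873), Adarb1 (0.863), Zdhhc22 (0.859) and Creg1 (0.844). The points share libraries and neighbouring tissue, and Rora was itself a leading gene of the relay thalamus. Pvalb, the marker of fast-spiking neurons, had a correlation of 0.274.

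The choroid plexus had the highest levels of 3 other isoforms, which differed in how far they were confined to it. Cox8b, the heart and muscle isoform of subunit 8 (chromosome 7, 140898945 to 140900446), had 591.5 CPM in the Trained choroid plexus (522.9 to 666.5, 269 UMIs) and 605.8 CPM in the Untrained one (581.4 to 631.0, 2317 UMIs). Its log2 ratios over the rest were 5.94 and 4.99. Cox8b made up 32.9% (29.7% to 36.3%) and 19.4% (18.7% to 20.1%) of the UMIs of the Cox8 pair there, and 0.278% and 0.341% in upper neocortex. Cox6b2, best known from testis (chromosome 7, 4751792 to 4753094), had 131.9 and 234.3 CPM (log2 ratios 3.91 and 3.93) and made up 21.0% and 23.1% of its pair with Cox6b1 (13.3% and 19.1% with spots thinned to 1000 UMIs). Cox7a1, another heart and muscle isoform (chromosome 7, 30184144 to 30186078), had 98.9 and 126.5 CPM (1.80 and 2.196) and made up 7.44% and 10.6% of its pair with Cox7a2. The choroid plexus and the Lbp and Tmem72 region together held 56.0% and 74.7% of the Cox8b UMIs, 23.6% and 57.6% of those of Cox6b2, and 6.46% and 28.35% of those of Cox7a1, in 1.54% and 4.12% of the spots. Most Cox7a1 thus lay elsewhere, at 28.6 and 27.6 CPM. The broad partners were present as well, Cox8a with 1205 and 2520 CPM, Cox6b1 with 496.9 and 779.4 CPM and Cox7a2 with 1231 and 1070 CPM.

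The small Lbp and Tmem72 region, with 21 and 22 spots, also had more Cox8b, at 137.9 and 223.0 CPM, and Cox6b2, at 50.8 and 86.3 CPM. The gene that most resembled Cox8b over the 40 points was Ttr, with a correlation of 0.942. A list of 7 choroid plexus genes summed to 205200 and 231600 CPM in the choroid plexus and still to 514.6 and 2531 CPM in upper neocortex, where Cox8b had 4.02 and 10.2 CPM. How much of the Cox8b seen outside the choroid plexus came with RNA spread from it was not tested.

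**Figure D4:**
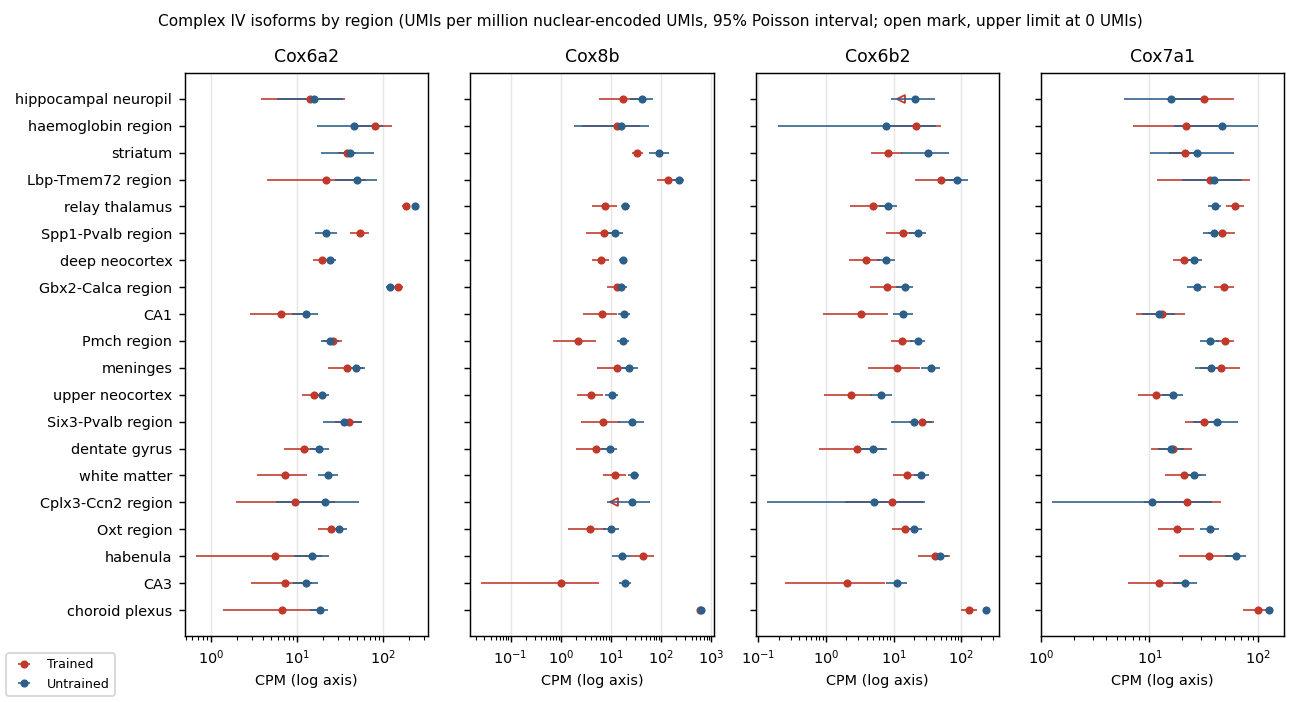
Levels of 4 complex IV isoforms in 20 regions, on a log axis, with 95% Poisson intervals. Cox6a2 peaks in the relay thalamus (185.8 and 238.4 CPM) and the region led by Gbx2 and Calca, and Cox8b, Cox6b2 and Cox7a1 peak in the choroid plexus.

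The other alternative isoforms were scarce. Cox4i2, the hypoxia-responsive isoform of subunit 4, made up 0.263% and 0.194% of its pair with Cox4i1 over the sections. In the Six3 and Pvalb region it had 14.9 and 10.99 CPM, from 13 and 5 UMIs. Ndufa4l2, a hypoxia-induced relative of the complex IV subunit Ndufa4, made up 0.437% and 0.521% of its pair and had 18.9 and 24.9 CPM in the meninges, from 10 and 28 UMIs. Cox7b2 had 47 and 131 UMIs in all. The 3 genes for the c-ring of complex V, Atp5g1, Atp5g2 and Atp5g3, encode the same mature protein and were used unequally. Atp5g2 made up 56.8% and 52.8% of the UMIs of Atp5g2 and Atp5g3 in white matter, against 37.7% and 39.6% over the sections, and Atp5g1 made up 64.5% and 69.2% of the UMIs of Atp5g1 and Atp5g3 in the choroid plexus, against 50.1% and 58.4%.

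Between the sections, the nuclear members as a group were level and the mitochondrial ones were not. Of the 94 nuclear members with at least 400 UMIs over both sections, 8 were higher and 9 lower in the Trained section by at least 0.5 on the log2 scale, where 8.77% and 8.48% of the 11447 nuclear genes tested were higher and lower. Their median log2 ratio was 0.03 against 0.01 for all nuclear genes. Of the 13 mitochondrial genes, 12 were below 0 and 7 were called lower, with a median of -0.66.

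Among the mitochondrial genes the sizes were unequal. mt-Atp8 had 245.1 CPM in the Trained and 970.4 CPM in the Untrained section (log2 ratio -1.99, interval -2.02 to -1.95), mt-Nd4l 264.9 and 683.8 CPM (-1.37), and mt-Nd5 1060 and 1957 CPM (-0.89). mt-Nd4, mt-Nd1, mt-Nd2 and mt-Nd3, all complex I subunits, lay between -0.73 and -0.66. mt-Co2, mt-Co3, mt-Cytb and mt-Atp6 lay between -0.46 and -0.36, and mt-Co1, the most abundant, at -0.26. mt-Nd6, the single member on the opposite strand of the mitochondrial genome, was on the other side, with 87.1 and 63.6 CPM (0.45, 0.37 to 0.53), and its log2 ratio ran from 0.27 as a mean of regions to 1.03 with spots thinned to 1000 UMIs, so whether it passes the size of a call depends on the setting. mt-Atp8 (7766 to 7969 of the mitochondrial chromosome) overlaps the start of mt-Atp6, and mt-Nd4l (9877 to 10173) that of mt-Nd4, and the members of each pair share a transcript, so their split of the counts is uncertain. mt-Nd6 overlaps the end of mt-Nd5 on the other strand.

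The gap differed between regions. The median log2 ratio of the mitochondrial genes was -0.21 in the hippocampal neuropil, -0.23 in the striatum, -0.16 in the Spp1 and Pvalb region and -0.15 in a region led by haemoglobin genes, and -1.18 in CA3, -1.14 in the habenula and -1.20 in a region led by Cplx3 and Ccn2. The haemoglobin region had 3507 CPM of the 4 haemoglobin genes in the Trained and 16410 CPM in the Untrained section, so its spots may not be alike in the sections. The gap was below 0 in all 20 regions, counted over the 10 to 13 mitochondrial genes with at least 400 UMIs there. The corresponding medians of the nuclear members lay between -0.14 in white matter and 0.47 in the haemoglobin region, where 22 members could be counted. Depth also differed, the Untrained median being 2.89 times the Trained one in the neuropil, 1.93 times in CA3, 2.49 times in the habenula, 2.41 times in the Spp1 and Pvalb region, 0.671 times in the striatum, 1.095 times in the Cplx3 and Ccn2 region and 1.01 times in the haemoglobin region, and its part in the gap was not tested. With spots thinned to 1000 UMIs, which weights them about equally, the median over whole sections was -0.49.

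The log2 ratios of the 94 nuclear members had an SD across genes of 0.42, against 0.43 over all 11447 nuclear genes, and those of the 37 complex I subunits an SD of 0.29. The 5 highest were Atp5mpl, a small complex V subunit, with 1843 CPM in the Trained and 1084 CPM in the Untrained section (log2 ratio 0.77), Cycs with 691.8 and 435.9 CPM (0.67), the complex I subunit Ndufb4 with 1043 and 673.3 CPM (0.63), Cox6a1 with 2500 and 1664 CPM (0.59) and the complex IV subunit Cox7c with 2599 and 1783 CPM (0.54). The 5 lowest were Cox8b with 19.9 and 64.4 CPM (-1.70), Cox6b2 with 10.98 and 32.2 CPM (-1.55), the complex V subunit Atp5k with 735.9 and 1429 CPM (-0.96), Uqcrc1, a core protein of complex III, with 227.5 and 380.4 CPM (-0.74) and Cox8a with 1619 and 2625 CPM (-0.70). On the left and right sides of the array the Cox8b ratio was -2.35 and -0.90 and the Cox6b2 ratio -1.88 and -1.20, and on the right side Cox8b lay above Atp5k (-0.97). Complex IV held Cox6a1 and Cox7c on one side and Cox8a on the other, and complex V Atp5mpl and Atp5k.

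The sections also differed in how much choroid plexus they held. The choroid plexus region had 43 spots in the Trained and 132 in the Untrained section, and its 7 marker genes summed to 6582 and 23130 CPM over the whole sections. Within the choroid plexus the Cox8b levels, 591.5 and 605.8 CPM, had overlapping intervals, while those of Cox6b2, 131.9 CPM (100.7 to 169.8) and 234.3 CPM (219.2 to 250.1), did not (log2 ratio -0.82). Over the spots outside the choroid plexus and the Lbp and Tmem72 region the Cox8b ratio was -0.99 (-1.21 to -0.78) and the Cox6b2 ratio -0.79. Choroid plexus transcripts were also counted in those spots and differed between the sections there, as given for upper neocortex, and their part in the ratios was not tested.

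Base composition moved with the ratios. Over the 94 nuclear members the Pearson correlation between the GC content of the longest transcript and the log2 ratio was -0.27, and over 11442 nuclear genes it was -0.34. The 32 members lowest in GC had a median ratio of 0.09 and the 32 highest -0.07. Over the 13 mitochondrial genes the correlation was 0.16. Genes within these 2 libraries are not replicates, and the part of composition in the ratios was not tested.

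**Figure D5:**
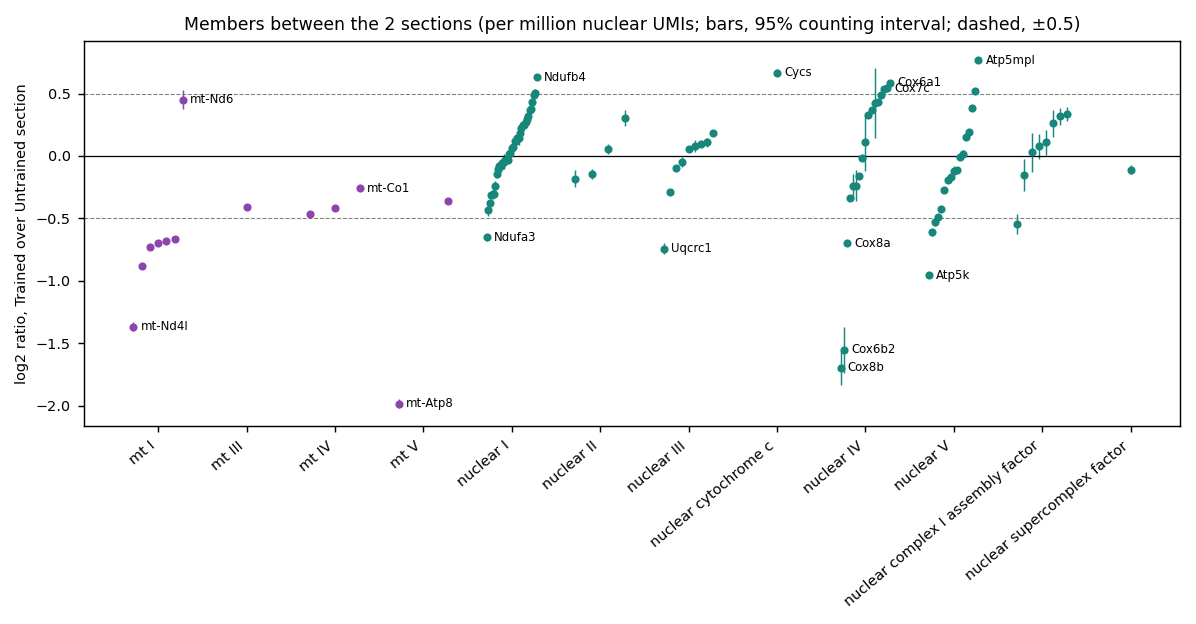
Each point is a member with at least 400 UMIs, grouped by genome and complex, with its log2 ratio of the Trained over the Untrained section and the 95% counting interval. Dashed lines mark 0.5 and -0.5. Of the mt points 12 of 13 lie below 0, while the nuclear groups spread to both sides, from -1.70 (Cox8b) to 0.77 (Atp5mpl).

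Other genes of the pathway were read against the same background of 8.77% of nuclear genes higher and 8.48% lower. Of 17 genes of the tricarboxylic acid cycle and pyruvate dehydrogenase 1 was higher and 0 lower, of 18 complex IV assembly factors 1 and 1, of 10 regulators of mitochondrial gene expression 1 and 1, of 4 complex II assembly factors 1 and 0, and of 6 carriers of ATP, phosphate and anions 0 and 0. No gene was called in either direction among 7 further assembly factors of complex I, 6 of complex III and 3 of complex V. Among the complex II assembly factors, whose median was 0.43, the called gene was Sdhaf4, with 118.4 and 69.3 CPM (0.77). Among the regulators, the called genes were Esrrg, an orphan nuclear receptor, with 20.1 and 8.91 CPM (1.17), and Polrmt, the mitochondrial RNA polymerase, with 13.6 and 20.1 CPM (-0.57). Esrrg was a leading gene of the Six3 and Pvalb region, which had 125 spots in the Trained and 42 in the Untrained section, and 6 genes of fast-spiking neurons summed to 1117 and 782.5 CPM over the sections. Their part in the Esrrg ratio was not tested. Tfam, which packages the mitochondrial genome and helps start its transcription, had 36.8 and 35.6 CPM (log2 ratio 0.05, -0.07 to 0.16). Ppargc1a, a coactivator of mitochondrial biogenesis, had 42.4 and 30.2 CPM (0.49).

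The deposited Moran's I, a score of spatial clustering that is near 0 for a random layout, was higher for the members than for other genes of at least 1000 UMIs. Its median was 0.397 in the Trained and 0.370 in the Untrained section for the mitochondrial genes, 0.154 and 0.177 for the nuclear members, and 0.0507 and 0.0539 for all nuclear genes. The members were not matched to the other genes for abundance. The highest nuclear member was Cox6a1 in the Trained and Cox6a2 in the Untrained section.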

How the data were processed

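Gene by spot UMI counts were deposited by the authors, made with Space Ranger 2.0.0 against mm10 per the submitters' notes. The deposited score, Moran's I per gene, and the deposited gene totals (counts) were also used. Groups follow the deposited labels. Members and gene lists were chosen with earlier results of these data known. Spots with at least 500 UMIs were clustered jointly (scanpy 1.11.5, leidenalg 0.10.2, resolution 1.5, 946 genes, no member), giving 21 clusters, of which fixed markers left 4 unnamed. Counts were summed per region and divided by nuclear-encoded UMIs. Ratios used 0.5 added UMI, with a call at 0.5 on the log2 scale, in both sections for regions (genes with 1000 UMIs in each), and once between sections (400 UMIs over both). With 1 section per group no test was possible. Intervals at 95% are exact Poisson, Clopper-Pearson or conditional binomial (scipy 1.17.1) and cover counting error only. On simulated counts of 11447 genes all 200 changed genes were called, with 1 false call. The planted changes were all at least 1 on the log2 scale, and the counts varied by counting error only. The simulation thus checks the calculation and gives no rate of false calls between mice, section planes or libraries. Doublets do not apply to spots. Genes named are the 13 mitochondrial genes, the highest nuclear member per complex, members at log2 1 or more in a region of both sections with 100 UMIs in each, the 5 highest and 5 lowest between sections, paired isoforms and the 5 genes most like a restricted isoform. Others named as called in a region, and examples of lower calls, were chosen after their values were seen. The motif letters and these background sets were also chosen after values were seen. Positions come from GENCODE on mm10, the build of the files. Authors' fold changes and clusters were not used.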

Additional observations from a re-analysis of the deposited data

Results flagged for a closer look

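Regional medians stood on opposite sides of 0 in the sections for 8 of the 40 region and gene-group combinations, and none of these differences was tested, since each group has 1 section. Each is a median log2 ratio over the rest of the section, Trained and then Untrained. For the mitochondrial genes they were 0.52 and -0.074 in the Spp1 and Pvalb region, -0.0492 and 0.206 in deep neocortex, and -0.0194 and 0.161 in the Pmch region of the hypothalamus. For the nuclear members they were -0.0537 and 0.101 in the habenula, 0.0204 and -0.122 in the striatum, 0.0484 and -0.0902 in the Lbp and Tmem72 region, -0.0481 and 0.0226 in CA3, and -0.0537 and 0.0112 in the Gbx2 and Calca region. Groups of 4 or more samples, in which a single outlying sample could be sought, do not exist here.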

How the results depend on the processing

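No paired analysis was possible because each group has 1 section and the sections share replicate number 1 only, and with 1 section per group none could be left out. The median log2 ratio of all nuclear genes between the sections was 0.074 scaled to all UMIs, against 0.00986 as reported. It was 0.027 and 0.0018 on the left and right sides of the array. Below 0 it was -0.004 with spots thinned, -0.013 at equal weight per spot and -0.031 as a mean of regions. Of the values that answer a comparison, 183 recomputed values stayed within a set range and 44 moved. Of the values of single genes 132 stayed and 92 moved. The range was the counting interval for a single gene or a share. For a median it was the widest counting interval among the genes of the set, and for a count a fixed fold range. Among values of at least 0.5 in size none changed sign. Smaller values were not checked for a change of sign. The mitochondrial median between the sections was -0.49 with spots thinned to 1000 UMIs and -0.47 with equal weight per spot. For the mitochondrial share of the hippocampal neuropil, the Trained values were 28.26% thinned, 28.01% at equal weight, 28.17% and 26.3% on the left and right sides of the array and 15.6% in the cluster that took most of its spots at resolution 1.0, which also held the CA1 layer, and the Untrained values 27.57%, 25.79%, 28.17%, 28.8% and 19.58%. In the choroid plexus, thinned, at equal weight, left and right, they were 7.074%, 6.899%, 6.204% and 6.436% (Trained) and 11.63%, 11.63%, 11.19% and 10.7% (Untrained). Nuclear members lower in the neuropil numbered 9 per all UMIs, 2 thinned, 4 at equal weight and 2 on the right side, where 20.6%, 8.43%, 7.39% and 7.98% of all nuclear genes were lower. In that mixed cluster at resolution 1.0, 6 mitochondrial genes were higher (7.0% of nuclear genes), the mitochondrial complex I median was 0.64 and 0.56, and in the coarser white matter cluster 7 nuclear members were lower (1370 of 4898 nuclear genes). In white matter 1 mitochondrial gene was lower when thinned, 1 at equal weight and 1 on the left side (1376, 1567 and 1389 of 4898 nuclear genes). In the choroid plexus 3 nuclear members were higher per all UMIs and 3 on the left side (5.14% and 4.08% of nuclear genes). Scaling to all UMIs shifts every nuclear gene of a region alike. The Cox6a2 share in the relay thalamus was 4.131% thinned (Trained) and 9.462% at equal weight (Untrained). The Cox8b share in the choroid plexus was 27.87% at equal weight and 36.8% on the left (Trained), and 15.41% thinned, 16.89% at equal weight, 21.47% left and 15.6% right (Untrained). The Cox6b2 share was 13.33% thinned (Trained), and 19.13% thinned and 20.34% at equal weight (Untrained). The cause of these moves was not tested. Leaving out spots under 500 UMIs or the choroid plexus spots was chosen after seeing the data. The mt-Nd6 log2 ratio of the Trained over the Untrained section was 1.03 thinned, against 0.45. Thinning also weights spots about equally, so the part of depth in it was not tested.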
